A study of Homo sapiens with 22 samples.

Results

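The lysosomal gene set followed here holds 46 genes of the 28063 gene symbols in the count files: 11 proteases and their kin, 13 glycosidases and sulfatases, 7 lipid and thioester enzymes and lipid carriers, 1 nuclease and 2 acid phosphatases, 6 membrane proteins, progranulin and 5 proton pump genes. The members were picked by symbol, and all 46 are listed for each of the 22 RNA-seq libraries and passed the filter on low counts. Each library had reads of 45 or 46 members, and the one at 0 was LGMN or GPNMB. They were measured in 3 human acute myeloid leukaemia cell lines. MOLM-13 and MV-4-11 are monocytic lines that carry a KMT2A fusion and an internal duplication in FLT3, and THP-1 is a monocytic line with a KMT2A fusion. Each of the 11 line-by-treatment groups had 2 libraries.

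Each line was given 1 µM BRM014 for 24 h or for 72 h. BRM014 blocks the ATPases SMARCA4 and SMARCA2, which drive SWI/SNF remodelling of chromatin. In THP-1, other cells were given 10 nM PMA, a phorbol ester that turns them into macrophage-like adherent cells, for 48 h followed by 24 h of rest, or 3 µM DB2313, an inhibitor of the myeloid transcription factor PU.1, for 72 h. DMSO, the solvent, was the control in each line. All cells were labelled wild type and were grown in RPMI with serum, and each line is 1 established culture line rather than a set of donors. DMSO cells were kept for 24 h or 72 h, but which of these applies to a DMSO library is not labelled, so treatment and time in culture cannot be told apart where they differ. Whether DB2313 and THP-1 DMSO libraries were prepared together is not labelled either. Nothing in the labels calls the 2 replicates of a group independent cultures, and p-values therefore measure only the spread between libraries, which may be technical.

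Lysosomes are the acidic compartments in which cells digest proteins, sugars, lipids and nucleic acids taken in from outside or delivered by autophagy. The V-type ATPase pumps protons into the lumen, hydrolases such as the cathepsins work at that low pH, and heavily glycosylated membrane proteins line the limiting membrane. Many of these genes carry a CACGTG-type motif near their start, known as the CLEAR element, which the transcription factors TFEB and TFE3 bind. Macrophages, which live by engulfing and breaking down material, are rich in lysosomal enzymes, so the set bears on how far leukaemia cells take on features of mature phagocytes.

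The libraries held 15893489 to 21565666 reads in genes. A count of 0 in a library allows a level of up to 0.139 to 0.189 CPM (counts per 1000000 reads in genes), taking 3 counts as the limit and covering counting error only. All myeloid markers of the list used as an identity check (SPI1, CD33, MPO, LYZ and 6 others) had reads in every group except CEBPE, which was at 0 in THP-1 cells given BRM014 for 72 h. Reads alone say little, and by level the list summed to 1007 to 13080 CPM, against 1.24 to 34.7 CPM for 10 lymphoid markers. Single markers moved both ways. In MOLM-13 at 72 h of BRM014, MPO had 8.10 and 5.96 CPM, against 167 and 168 CPM in DMSO. CEBPA had 1786 and 1665 CPM there, against 671 and 804 CPM in DMSO. The PMA replicates stood further apart than those of any other group, with chi-square over degrees of freedom at 30.4, against 3.14 to 10.7 elsewhere. The share of reads outside annotated genes was 18.2% and 18.4% in MOLM-13 at 72 h of BRM014, against 13.2% and 12.4% in MOLM-13 DMSO, and its part in the results was not tested. In bulk RNA a smaller share of cells of a type and less RNA per cell cannot be told apart.

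BRM014 raised most of the lysosomal set, and more of it at 72 h than at 24 h. Averaged over the 3 lines, 39 of 46 members were higher than in DMSO at 72 h and 5 were lower, while 34.9% and 30.4% of the 16794 genes tested were called in those directions (edgeR quasi-likelihood test, Benjamini-Hochberg adjusted p under 0.05). The median log2 fold change of the members was 1.10, against 0.07 over all genes tested. At 24 h, 29 members were higher and 9 lower (all genes: 28.9% and 27.1%), and the median was 0.25 against 0.03 for all genes. A direct comparison of 72 h with 24 h found 38 members higher and 2 lower (all genes: 24.6% and 23.4%), with a median of 0.73 against 0.03. GUSB and ACP5 were the 2 members not called at 72 h.

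**Figure D1:**
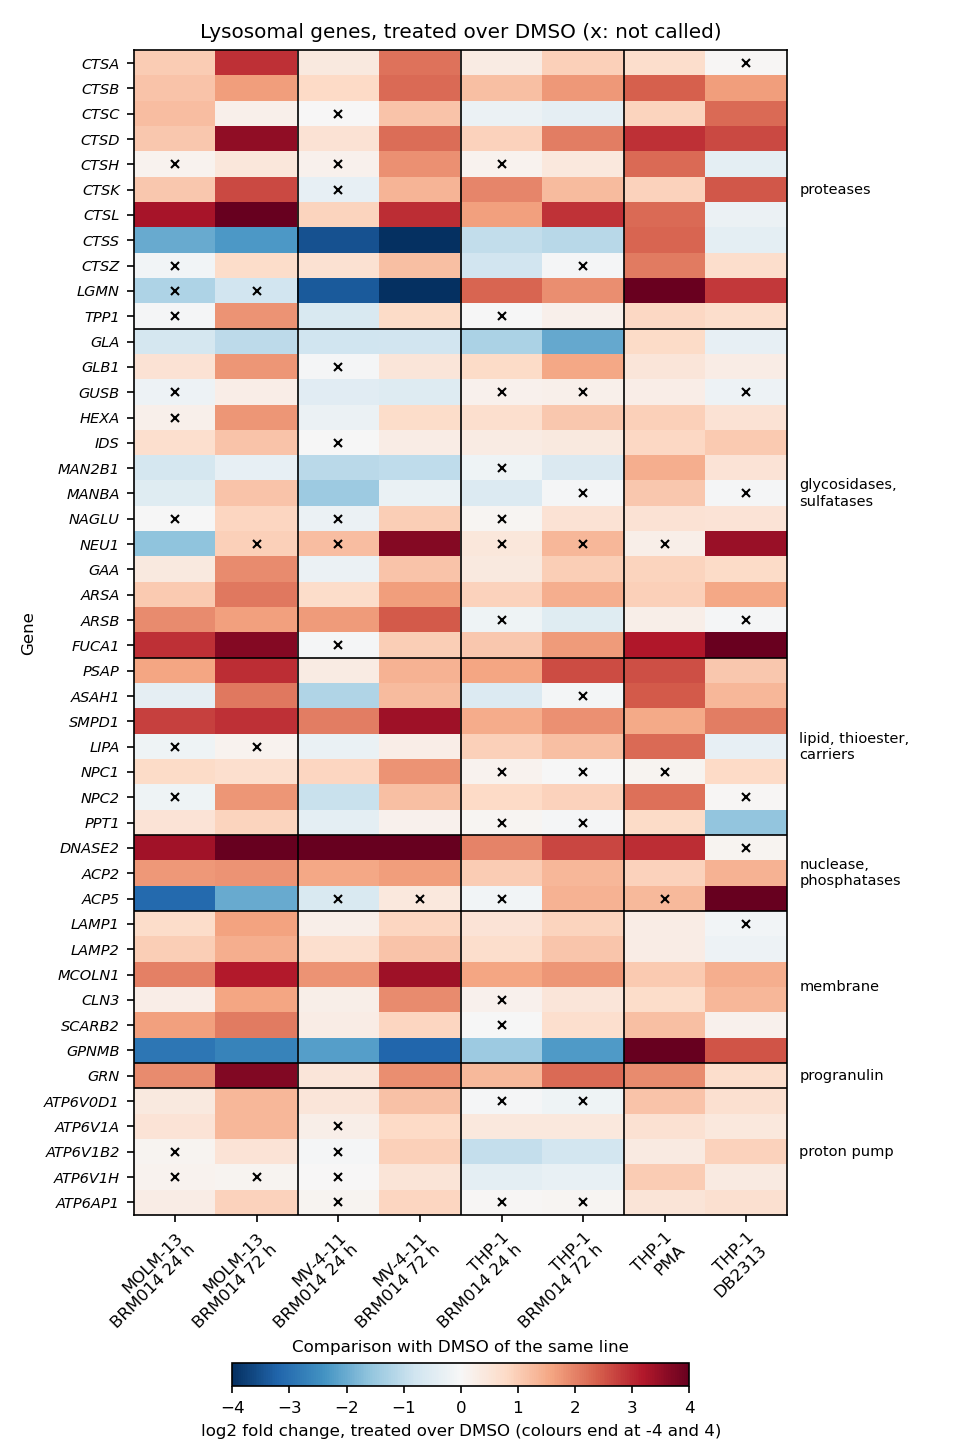
Heat map of the log2 fold change of the 46 members (rows, grouped by role) in 8 comparisons with DMSO (columns); red is higher and blue lower in treated cells, colours end at 4 on either side, and an x marks a change not called at an adjusted p of 0.05. Most rows are red at 72 h of BRM014 and with PMA, while CTSS, GLA and GPNMB are blue in all 3 lines with BRM014.

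Counted line by line at 72 h, 37 members were higher and 5 lower in MOLM-13 (all genes: 30.3% and 29.4%), 38 were higher and 7 lower in MV-4-11 (all genes: 28.4% and 26.1%), and 29 were higher and 8 lower in THP-1 (all genes: 30.9% and 28%). At 24 h the counts were 27 higher and 8 lower in MOLM-13 (all genes: 22.7% and 23.5%), 19 higher and 14 lower in MV-4-11 (all genes: 23.6% and 22.4%), and 23 higher and 9 lower in THP-1 (all genes: 25.9% and 24.1%). At 72 h, 26 members were higher in all 3 lines (all genes: 13.5%), namely CTSA, CTSB, CTSD, CTSH, CTSK, CTSL, TPP1, GLB1, HEXA, IDS, NAGLU, GAA, ARSA, FUCA1, PSAP, SMPD1, NPC2, DNASE2, ACP2, LAMP1, LAMP2, MCOLN1, CLN3, SCARB2, GRN and ATP6V1A. Of these, TPP1 lost its call in THP-1 in 13 of 22 fits with 1 library left out (adjusted p 0.0539 to 0.287), and IDS lost its call in MV-4-11 in 2 (0.151 and 0.185). The 4 members lower in all 3 lines at 72 h (all genes: 14.5%) were CTSS, GLA, MAN2B1 and GPNMB. At 24 h, 13 members were already higher in all 3 lines (all genes: 9.12%) and 5 were lower (all genes: 9.49%), those lower being CTSS, GLA, MANBA, ASAH1 and GPNMB.

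The summed abundance of the set shows the size of the change in the transcriptome, and it is weighted to the most abundant members. PPT1 is left out of these sums because it made up 51.9% and 52.5% of the set's reads in THP-1 DMSO but at most 5.93% in any MOLM-13 or MV-4-11 library. The other 45 members took 0.835% and 0.854% of gene reads at 24 h and 2.131% and 2.104% at 72 h in MOLM-13, against 0.418% and 0.426% in DMSO. The mean at 72 h was thus 5.01 times that in DMSO, at 21180 against 4223 CPM. Much of that rise lay in GRN, CTSD and PSAP. Their means were 6202, 2353 and 2159 CPM at 72 h, against 419, 177 and 243 CPM in DMSO. In MV-4-11 the shares at 72 h were 1.134% and 1.132%, against 0.438% and 0.442% in DMSO, 2.57 times as much. In THP-1 they were 1.25% and 1.28% at 72 h of BRM014, 1.62% and 1.63% with PMA and 1.15% and 1.14% with DB2313, against 0.567% and 0.566% in DMSO. Those are 2.23, 2.87 and 2.02 times the THP-1 DMSO share, and in no line did a treated library overlap its DMSO libraries. The changes in THP-1 were smaller with PPT1 counted in. All 46 members then took 1.888% and 1.899% of gene reads at 72 h of BRM014, 2.639% and 2.61% with PMA and 1.375% and 1.355% with DB2313. In THP-1 DMSO they took 1.181% and 1.192%. The 12 macrophage markers summed to 994.5 to 1041 CPM in MOLM-13 at 72 h of BRM014, against 101.9 to 104.5 CPM in DMSO, and to 658.9 to 665.1 CPM in MV-4-11, against 202.5 to 205.9 CPM in DMSO. CD68, itself a protein of lysosomal membranes, gave nearly all of it (990 and 1039 CPM in MOLM-13 at 72 h), while CD163, C1QA, C1QB, C1QC and FABP4 were at 0 at 72 h and in DMSO of both lines and CD14 was at most 3.79 CPM at 72 h.

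**Figure D2:**
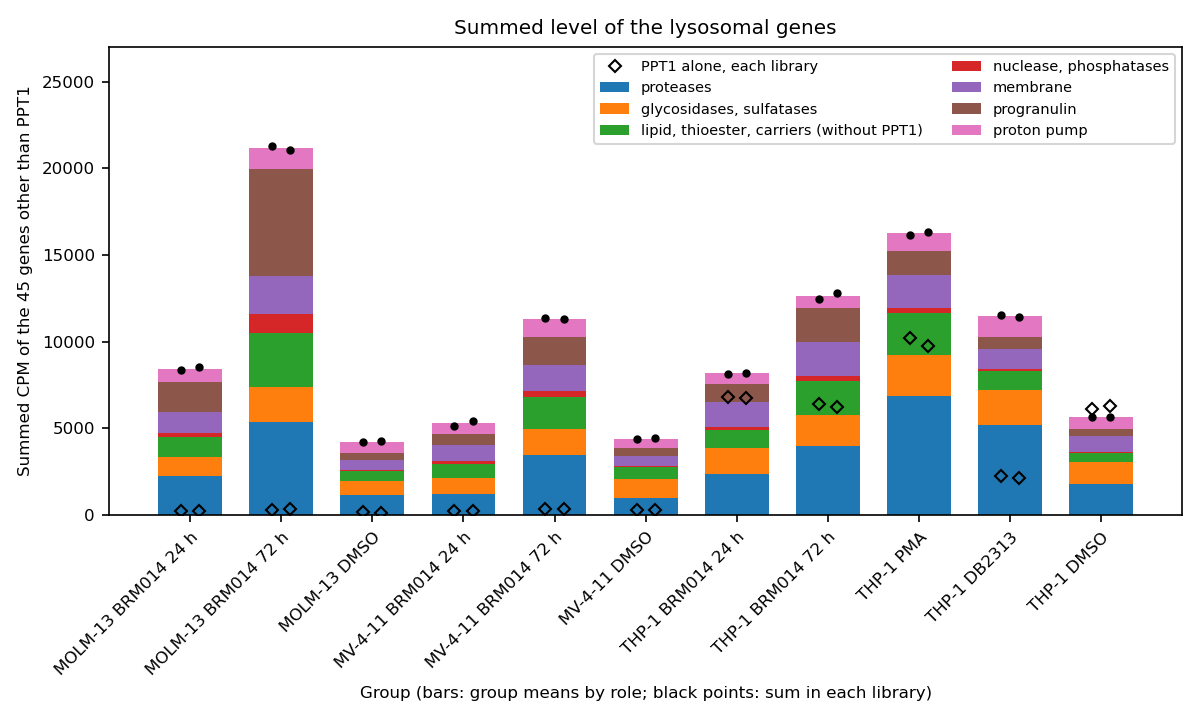
Stacked bars of the members' summed CPM by role, without PPT1, as the mean of each of the 11 groups. Black points are the sums in each of the 22 libraries, and diamonds are PPT1 in each library on the same CPM axis. The tallest bar is MOLM-13 at 72 h of BRM014, with its libraries at 2.131% and 2.104% of gene reads. PPT1 stands far above its level in the other lines in all THP-1 libraries.

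Promoter sequence was described without a test, and its part in the changes was not tested. RefSeq windows of 300 bases (250 before and 50 after the start, GRCh38.p14) were at hand for 32 of the 46 members, and 10 of these (31.2%) held CACGTG on either strand, against 8.77% of 27305 genes in the table. The longer forms TCACGTG and TCACGTGA, which contain it, were in 28.1% and 18.8% of members, against 4.49% and 1.18% of all genes. Windows of 4 members are shown over the 200 bases before the start, with CACGTG in capitals: 3 members that hold it more than once and rose, and DNASE2, the member that rose most, which has none in its window. MCOLN1 lies at chr19:7522424-7522623 (plus strand), LAMP1 at chr13:113297039-113297238 (plus), GAA at chr17:80101381-80101580 (plus) and DNASE2 at chr19:12881450-12881649 (minus). Each is printed 5′ to 3′ on the strand of its gene.
MCOLN1: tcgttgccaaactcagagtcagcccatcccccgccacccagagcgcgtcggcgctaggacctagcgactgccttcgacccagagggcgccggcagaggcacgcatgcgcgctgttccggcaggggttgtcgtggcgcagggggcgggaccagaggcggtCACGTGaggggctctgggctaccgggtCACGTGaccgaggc
LAMP1: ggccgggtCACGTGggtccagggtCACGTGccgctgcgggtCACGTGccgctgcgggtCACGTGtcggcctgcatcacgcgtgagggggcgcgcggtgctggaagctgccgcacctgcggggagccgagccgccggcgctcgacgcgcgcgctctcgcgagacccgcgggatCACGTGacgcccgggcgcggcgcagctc
GAA: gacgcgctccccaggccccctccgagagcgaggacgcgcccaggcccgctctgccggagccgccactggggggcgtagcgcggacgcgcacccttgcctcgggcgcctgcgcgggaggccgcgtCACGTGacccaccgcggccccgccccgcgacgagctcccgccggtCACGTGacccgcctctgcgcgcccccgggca
DNASE2: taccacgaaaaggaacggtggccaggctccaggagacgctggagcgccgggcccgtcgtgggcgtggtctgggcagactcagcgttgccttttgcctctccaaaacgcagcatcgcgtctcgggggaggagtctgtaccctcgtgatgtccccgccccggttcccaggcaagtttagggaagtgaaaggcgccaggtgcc

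MCOLN1 and GAA show 2 copies each and LAMP1 shows 5, with 6 in its whole window. At 72 h of BRM014, 9 of the 10 members with CACGTG were higher and 0 lower (median log2 fold change 1.33), and 18 of the 22 members without it were higher and 3 lower (median 0.86). With PMA the medians ran the other way, 0.81 with the motif and 1.33 without. With DB2313 they were 1.06 and 0.59. The ranges overlapped widely. Members with the motif ran between -0.07 and 2.78 at 72 h of BRM014, and those without it between -2.70 and 5.02. The members with the motif include NEU1 and ACP5, whose counts are few or uncertain. ACP5 set the low end of -0.07, and neither gene was called with PMA. A motif match is a description of these letters and not a binding site.

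Among the proteases and their kin, 9 of 11 were higher and 2 lower at 72 h of BRM014 averaged over lines (all genes: 34.9% and 30.4%). CTSL, cathepsin L, an endopeptidase with a cysteine at its active site, rose most. In MOLM-13, CTSL had 46.05 and 47.6 CPM at 24 h of BRM014 and 81.8 and 84.1 CPM at 72 h, against 4.74 and 3.96 CPM in DMSO. In MV-4-11 the values were 90.9 and 93.25 CPM at 24 h and 378.5 and 389 CPM at 72 h, against 47.1 and 48.2 CPM in DMSO. THP-1 cells had 249.6 and 240.3 CPM at 24 h and 582 and 625 CPM at 72 h, against 76.7 and 75.7 CPM in DMSO. No treated library overlapped its DMSO libraries, and the mean rise was log2 3.30 ± 0.053, adjusted p = 6.04e-21 (SE, edgeR quasi-likelihood test). CTSL lies on chromosome 9 at 87725519 to 87731393 of GRCh38, plus strand.

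CTSD encodes cathepsin D, the main aspartic protease of lysosomes (chromosome 11, 1752752 to 1764573, minus strand). In MOLM-13, CTSD had 397 and 417 CPM at 24 h of BRM014 and 2409 and 2298 CPM at 72 h, against 163 and 190 CPM in DMSO. MV-4-11 cells had 270.2 and 269 CPM at 24 h and 840 and 841 CPM at 72 h, against 172 and 172 CPM in DMSO. In THP-1 they were 578 and 589 CPM at 24 h and 1270 and 1352 CPM at 72 h, against 305 and 293.5 CPM in DMSO. At 24 h the rise was log2 0.86 ± 0.05, and the direct contrast of 72 h with 24 h added 1.75 ± 0.05 (adjusted p = 7.99e-16, edgeR). CTSA, the protective protein of the sialidase complex, was also higher in all lines at 72 h, by log2 2.92 in MOLM-13, 2.17 in MV-4-11 and 0.97 in THP-1. CTSB, a cysteine protease of broad specificity, rose by 1.66, 2.28 and 1.72 in the same lines. CTSK, better known as the collagen-cutting enzyme of osteoclasts, rose by 2.65, 1.34 and 1.28 but stayed at low levels, with at most 26.5 CPM in any BRM014 library.

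CTSS went the other way. Cathepsin S is the protease that trims the invariant chain in antigen-presenting cells (chromosome 1, 150730196 to 150765957, minus strand). In MOLM-13, CTSS had 25.75 and 24.3 CPM at 24 h of BRM014 and 19.2 and 23.8 CPM at 72 h, against 101 and 85.6 CPM in DMSO. In MV-4-11 the values were 6.7 and 7.55 CPM at 24 h and 4.54 and 3.53 CPM at 72 h, against 74.7 and 76.8 CPM in DMSO. THP-1 cells had 85 and 87.2 CPM at 24 h and 84.3 and 79.9 CPM at 72 h, against 165 and 168 CPM in DMSO. It fell in all 3 lines at both times, by log2 -4.30 ± 0.13, adjusted p = 4.9e-16 in MV-4-11 and -1.11 ± 0.095, adjusted p = 4.01e-09 in THP-1 at 72 h (edgeR). LGMN, legumain, an asparagine-specific protease that processes cathepsins, was near the detection limit. MOLM-13 and MV-4-11 libraries held at most 0.389 CPM. In MV-4-11 at 72 h it had 0 counts, against 12 over both DMSO libraries, at least 3.75-fold lower with 3 counts over the group as the floor. In THP-1 it had 2.04 and 1.67 CPM at 24 h and 1.77 and 0.981 CPM at 72 h, against 0.188 and 0.495 CPM in DMSO. Its mean fall over the lines, fitted at -1.50 with an adjusted p of 0.0433, takes in the MV-4-11 libraries at 0, so its size depends on the prior count. It lost its call in 11 of the 22 edgeR fits that left out 1 library, with adjusted p-values of 0.0503 to 0.123.

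**Figure D3:**
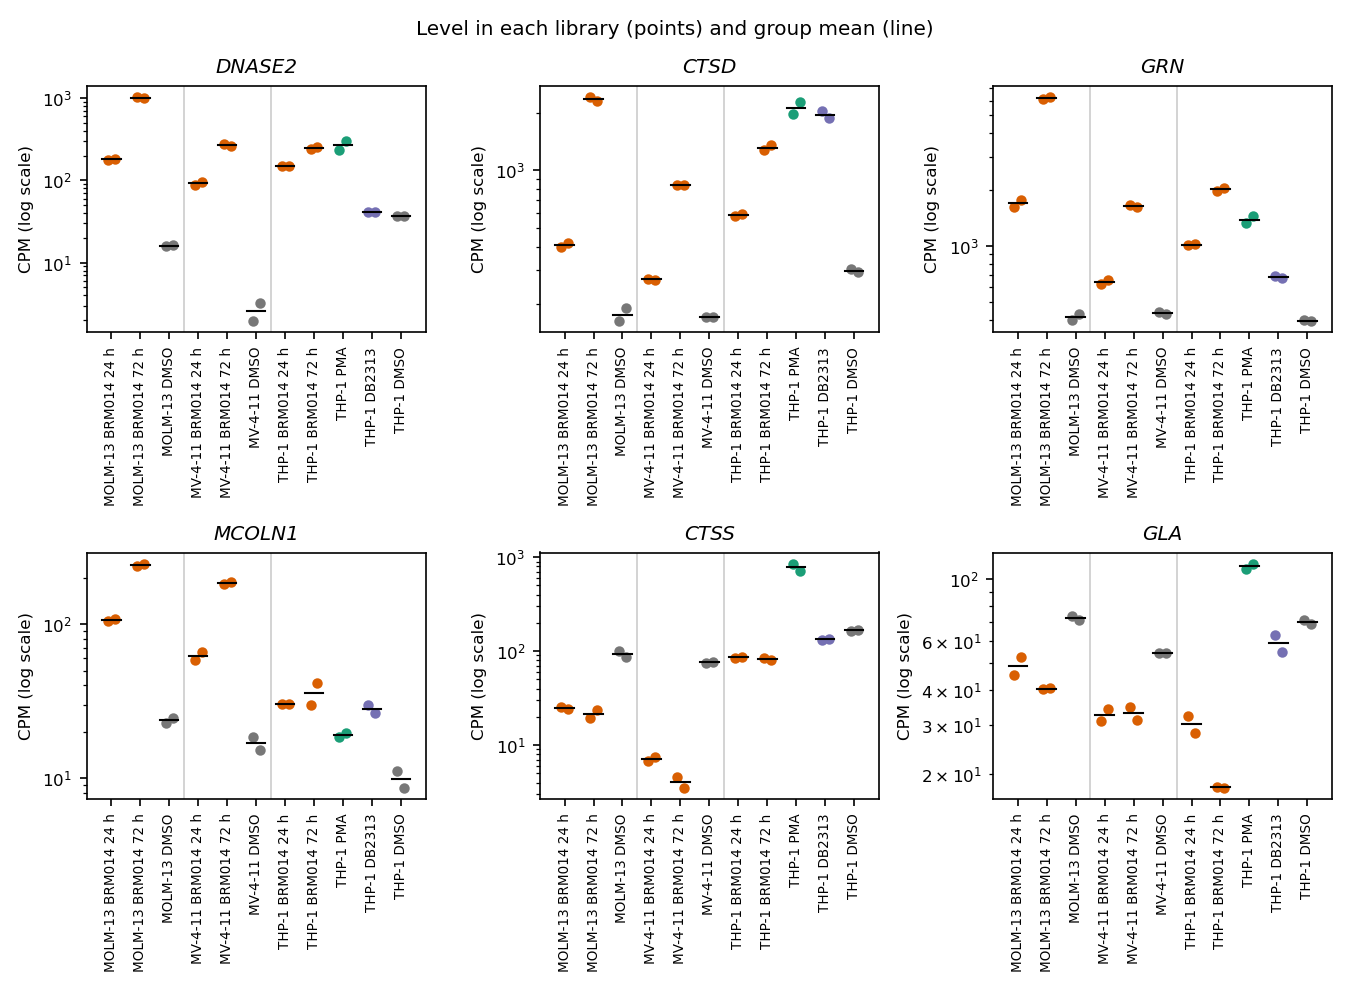
CPM of DNASE2, CTSD, GRN, MCOLN1, CTSS and GLA in each library on a log axis, by line and treatment with DMSO at the right of each line; each point is 1 library. DNASE2, CTSD, GRN and MCOLN1 lie above their DMSO points at 72 h of BRM014 in every line, and CTSS and GLA lie below theirs, while PMA points lie above DMSO for all 6 genes.

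Of the 13 glycosidases and sulfatases, 10 were higher and 2 lower at 72 h of BRM014 averaged over lines (all genes: 34.9% and 30.4%), with a median log2 fold change of 1.19. FUCA1, which removes fucose from glycoproteins (chromosome 1, 23845077 to 23868294, minus strand), rose most in the mean of the lines. In MOLM-13, FUCA1 had 161 and 162 CPM at 24 h of BRM014 and 292 and 279 CPM at 72 h, against 20.9 and 18.2 CPM in DMSO. MV-4-11 cells had 35.2 and 35 CPM at 24 h and 72.1 and 72.7 CPM at 72 h, against 34.85 and 34.8 CPM in DMSO. In THP-1 they were 25.35 and 25.55 CPM at 24 h and 41.1 and 39.9 CPM at 72 h, against 12.8 and 10.7 CPM in DMSO. The rise came early in MOLM-13 and was not seen at 24 h in MV-4-11, where the log2 fold change was -0.06 ± 0.092, adjusted p = 0.658 (edgeR). The lysosomal beta-galactosidase gene GLB1 rose by 1.76, 0.49 and 1.53 in MOLM-13, MV-4-11 and THP-1 at 72 h. HEXA, a subunit of beta-hexosaminidase, rose by 1.77, 0.72 and 1.08, and GAA, the acid glucosidase that breaks down glycogen, by 1.89, 1.15 and 0.98. ARSA, the sulfatase that acts on sulfatides, rose by 2.11, 1.68 and 1.45. IDS, which desulfates heparan and dermatan sulfate, and NAGLU, which trims heparan sulfate, rose by 0.61 and 0.82 in the mean of the lines.

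GLA, the alpha-galactosidase lost in Fabry disease, was lower throughout (X chromosome, 101397803 to 101408012, minus strand). In MOLM-13, GLA had 45.2 and 52.6 CPM at 24 h of BRM014 and 40.2 and 40.6 CPM at 72 h, against 73.7 and 71.5 CPM in DMSO. In MV-4-11 the values were 31 and 34.1 CPM at 24 h and 34.85 and 31.3 CPM at 72 h, against 54.4 and 54.4 CPM in DMSO. THP-1 cells had 32.3 and 28 CPM at 24 h and 17.9 and 17.8 CPM at 72 h, against 71.1 and 68.9 CPM in DMSO. The groups did not overlap in any line, and the fall at 72 h was log2 -1.29 ± 0.058, adjusted p = 4.81e-14 in the mean of the lines and -2.05 ± 0.10 in THP-1 (edgeR). MAN2B1, the lysosomal alpha-mannosidase, was lower by -0.64 ± 0.04 in the mean of the lines, with 127 and 136.5 CPM in MV-4-11 at 72 h, against 251 and 265 CPM in DMSO. In MOLM-13 its fall at 72 h, -0.33 ± 0.069, was lost with library size alone as the scaling (-0.14, adjusted p = 0.0841). NEU1, the lysosomal sialidase, stayed at 3.88 CPM or less in all libraries and is described separately because its counts are uncertain.

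All 7 lipid and thioester genes were higher at 72 h of BRM014 averaged over lines (all genes: 34.9%). PSAP encodes the precursor of the saposins, which present sphingolipids to their hydrolases (chromosome 10, 71816298 to 71851375, minus strand). In MOLM-13, PSAP had 794 and 803 CPM at 24 h of BRM014 and 2233 and 2085 CPM at 72 h, against 237 and 249.7 CPM in DMSO. MV-4-11 cells had 583 and 624 CPM at 24 h and 1234 and 1264 CPM at 72 h, against 455 and 459 CPM in DMSO. In THP-1 they were 744 and 755 CPM at 24 h and 1569 and 1601 CPM at 72 h, against 246 and 241 CPM in DMSO. Its rise was log2 2.32 ± 0.036, adjusted p = 3.81e-21 (edgeR), with no overlap between treated and DMSO libraries. SMPD1, the acid sphingomyelinase (chromosome 11, 6390431 to 6394998, plus strand), started from far fewer reads. In MOLM-13, SMPD1 had 36.9 and 44.4 CPM at 24 h of BRM014 and 48.5 and 48.3 CPM at 72 h, against 5.93 and 5.285 CPM in DMSO. In MV-4-11 the values were 33.35 and 34.1 CPM at 24 h and 85.6 and 84 CPM at 72 h, against 7.84 and 7.62 CPM in DMSO. THP-1 cells had 47.6 and 51.9 CPM at 24 h and 60.02 and 68.3 CPM at 72 h, against 16.5 and 17.6 CPM in DMSO. Most of its rise was there at 24 h, at log2 2.09 ± 0.07, with 0.62 ± 0.059 more at 72 h.

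ASAH1, the acid ceramidase, changed direction with time. It was lower in all 3 lines at 24 h, with log2 fold changes of -0.35 in MOLM-13, -1.21 in MV-4-11 and -0.54 in THP-1. At 72 h it was higher in MOLM-13 (2.11) and MV-4-11 (1.25) and was not called in THP-1 (-0.09 ± 0.08, adjusted p = 0.369, edgeR). In MOLM-13 it had 89.1 and 85.1 CPM at 24 h and 495 and 514 CPM at 72 h, against 108 and 96.3 CPM in DMSO. MANBA, the beta-mannosidase, and NPC2, the soluble sterol carrier, also gained between the times, with the direct contrast of 72 h with 24 h at 1.10 ± 0.051 and 1.38 ± 0.08. LIPA, the acid lipase, and NPC1, the membrane sterol transporter, changed less, at 0.53 and 0.82 over the 3 lines at 72 h.

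DNASE2, the acid endonuclease that digests DNA of engulfed cells, had the largest rise of the set (chromosome 19, 12875211 to 12881468, minus strand). In MOLM-13, DNASE2 had 177 and 184.5 CPM at 24 h of BRM014 and 1027 and 1005 CPM at 72 h, against 15.8 and 16.4 CPM in DMSO. MV-4-11 cells had 89 and 96.05 CPM at 24 h and 274 and 263 CPM at 72 h, against 1.945 and 3.26 CPM in DMSO. In THP-1 they were 151 and 149 CPM at 24 h and 241 and 253 CPM at 72 h, against 36.9 and 36.5 CPM in DMSO. The 3 DMSO groups themselves differed, from a few CPM in MV-4-11 to near 37 CPM in THP-1, while every BRM014 library was above the highest DMSO library of any line. The mean rise was log2 3.47 ± 0.077, adjusted p = 2.29e-18 at 24 h and 5.02 ± 0.078, adjusted p = 3.81e-21 at 72 h (edgeR). ACP2, the lysosomal acid phosphatase, rose by 1.60 at 72 h, and nearly as much, 1.43, at 24 h. ACP5, the tartrate-resistant phosphatase of osteoclasts and macrophages, held at most 1.90 CPM in any BRM014 library and was not called in the mean of the lines (-0.07 ± 0.56, adjusted p = 1).

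Of the 6 membrane proteins, 5 were higher and GPNMB was lower at 72 h of BRM014 averaged over lines (all genes: 34.9% and 30.4%). MCOLN1, the calcium channel mucolipin of the lysosomal membrane (chromosome 19, 7522626 to 7534009, plus strand), rose most. In MOLM-13, MCOLN1 had 104 and 107.5 CPM at 24 h of BRM014 and 239 and 246.5 CPM at 72 h, against 22.9 and 24.7 CPM in DMSO. In MV-4-11 the values were 58.2 and 65.5 CPM at 24 h and 183 and 188.5 CPM at 72 h, against 18.45 and 15.3 CPM in DMSO. THP-1 cells had 30.3 and 30.3 CPM at 24 h and 29.96 and 41.75 CPM at 72 h, against 11.2 and 8.71 CPM in DMSO. The rise was log2 2.78 ± 0.078, adjusted p = 2.58e-17 in the mean of the lines (edgeR). The promoter window of MCOLN1 carries 2 copies of CACGTG, and their part in the rise was not tested. The abundant coat proteins moved less. LAMP1 rose by 1.61, 0.85 and 0.88 in MOLM-13, MV-4-11 and THP-1, and LAMP2 by 1.44, 1.14 and 1.10. CLN3, a multipass protein lost in juvenile Batten disease, rose by 1.31, and SCARB2, the receptor that carries glucocerebrosidase to lysosomes, by 1.20.

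GPNMB, a glycoprotein of macrophage and melanocyte lysosomes, was close to absent in MOLM-13 and MV-4-11 (chromosome 7, 23235967 to 23275108, plus strand). In MOLM-13, 3 counts were seen over both libraries at 72 h, against 15 in DMSO, a ratio of 0.168 with a counting interval of 0.0312 to 0.594 (95%). In MV-4-11 it had 0.116 and 0.26 CPM at 72 h, against 1.445 and 1.92 CPM in DMSO. THP-1 had more, with 13.1 and 10.4 CPM at 24 h and 6.8 and 6.805 CPM at 72 h, against 31.5 and 30.5 CPM in DMSO, a fall of log2 -2.27 ± 0.13, adjusted p = 1.34e-11 at 72 h (edgeR).

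GRN encodes progranulin, a secreted and lysosomal protein that is cut into granulins and helps hydrolases mature (chromosome 17, 44345086 to 44353102, plus strand). In MOLM-13, GRN had 1615 and 1761 CPM at 24 h of BRM014 and 6148 and 6256 CPM at 72 h, against 403 and 434 CPM in DMSO. MV-4-11 cells had 625 and 655 CPM at 24 h and 1663 and 1615 CPM at 72 h, against 441 and 432 CPM in DMSO. In THP-1 they were 1005 and 1027 CPM at 24 h and 1967 and 2046 CPM at 72 h, against 399.7 and 396 CPM in DMSO. Every treated library was above its DMSO libraries, and the mean rise at 72 h was log2 2.60 ± 0.041, adjusted p = 5.04e-21 (edgeR). Per kilobase of exon, GRN was the highest member in MOLM-13 at 72 h of BRM014, at 1685 CPM per kb, followed by CTSD at 753 and PSAP at 667 CPM per kb. In MOLM-13 DMSO the same scale gave 114 CPM per kb for GRN, 56.5 for CTSD and 75.1 for PSAP. In MV-4-11 at 72 h GRN, PSAP and CTSD again led, at 445, 386 and 269 CPM per kb, against 119, 141 and 55.0 in DMSO.

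The 5 proton pump genes had a median log2 fold change of 0.62 at 72 h of BRM014 averaged over lines, and all 5 were called higher (all genes: 34.9%). By line, 4 of 5 were higher in MOLM-13 (all genes: 30.3%) and 5 of 5 in MV-4-11 (all genes: 28.4%). In THP-1, 1 of 5 was higher and 2 were lower (all genes: 30.9% and 28%). ATP6V0D1, the subunit that joins the membrane ring to the stalk, rose by 1.33 in MOLM-13 and 1.18 in MV-4-11, and had -0.17 ± 0.088, adjusted p = 0.0988 in THP-1 (edgeR). ATP6V1A, the catalytic subunit that hydrolyses ATP, rose in all 3 lines, by 1.33, 0.81 and 0.42. ATP6AP1, an accessory subunit needed for assembly, rose by 0.92 and 0.86 in MOLM-13 and MV-4-11 and had 0.07 ± 0.076, adjusted p = 0.451 in THP-1. The mean rise of ATP6V1H at 72 h was small, 0.11 ± 0.045, adjusted p = 0.0321, and lost its call in 11 of 22 fits with 1 library left out (adjusted p 0.052 to 0.155).

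The lines differed in how strongly they responded. The difference between the lines' effects was called for 36 of 46 members at 24 h and for 44 at 72 h, in a background where 43.5% and 52.9% of all genes tested were called (edgeR, 2 degrees of freedom). ARSB, the sulfatase that acts on dermatan sulfate, had the smallest p for a difference at 72 h (chromosome 5, 78777209 to 78986087, minus strand). In MOLM-13, ARSB had 162 and 173 CPM at 24 h of BRM014 and 152 and 142.5 CPM at 72 h, against 42 and 39.95 CPM in DMSO. In MV-4-11 the values were 104 and 108 CPM at 24 h and 172 and 186 CPM at 72 h, against 33.4 and 28.9 CPM in DMSO. THP-1 cells had 99.9 and 97.7 CPM at 24 h and 83.9 and 80.6 CPM at 72 h, against 108 and 107 CPM in DMSO. It was thus higher in MOLM-13 and MV-4-11, at log2 1.65 ± 0.082 and 2.47 ± 0.083, and lower in THP-1, at -0.47 ± 0.078, and the difference had an adjusted p of 1.96e-13. DNASE2, FUCA1 and GRN came next, with adjusted p-values of 1.75e-12, 5.76e-12 and 1.12e-11. DNASE2 rose most in MV-4-11 (6.61) and least in THP-1 (2.66), FUCA1 most in MOLM-13 (3.68) and least in MV-4-11 (1.00), and GRN most in MOLM-13 (3.70) and least in MV-4-11 (1.85).

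Besides ARSB, 7 members were called in opposite directions in 2 lines at 72 h, namely CTSC, LGMN, GUSB, MANBA, ACP5, ATP6V1B2 and ATP6V1H. Those 8 are 17.4% of the members, while 9.29% of all genes tested were called in opposite directions in 2 lines. CTSC, the dipeptidyl peptidase that activates granule serine proteases, had 531 and 519.8 CPM in MV-4-11 at 72 h, against 229 and 228 CPM in DMSO. In THP-1 it had 186 and 172.5 CPM, against 219.8 and 217 CPM in DMSO, and in MOLM-13 619 and 596 CPM at 24 h and 303.5 and 319 CPM at 72 h, against 244 and 231 CPM in DMSO. Its early rise in MOLM-13, 1.23, was down to 0.20 at 72 h. ATP6V1B2, a nucleotide-binding pump subunit, had 417 and 418 CPM in MV-4-11 at 72 h, against 204 and 214 CPM in DMSO, and 175 and 171 CPM in THP-1, against 274 and 268 CPM in DMSO. In MOLM-13 it had 481 and 481 CPM at 72 h, against 292 and 288 CPM in DMSO. The 3 lines' log2 fold changes for it were 0.94 ± 0.061 in MV-4-11, -0.73 ± 0.061 in THP-1 and 0.54 ± 0.06 in MOLM-13.

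ATP6V1H, a regulatory subunit of the pump, had 82.5 and 75.5 CPM in MV-4-11 at 72 h, against 50.6 and 54.9 CPM in DMSO, and 39.2 and 39.7 CPM in THP-1, against 44.5 and 46.3 CPM in DMSO. MANBA had 103.5 and 106 CPM in MOLM-13 at 72 h, against 41.55 and 41.7 CPM in DMSO, and 69.1 and 61.8 CPM in MV-4-11, against 79.5 and 72.8 CPM in DMSO. The beta-glucuronidase gene GUSB, often used as a reference gene, moved little. It had 125 and 116 CPM in MOLM-13 at 72 h, against 85.3 and 88 CPM in DMSO, and 77.2 and 72.95 CPM in MV-4-11, against 104 and 101 CPM in DMSO. The rise of GUSB in MOLM-13, 0.28 ± 0.087, adjusted p = 0.00851, was lost without MOLM-13 BRM014 72 h replicate 1 (0.23, adjusted p = 0.087) or MOLM-13 DMSO replicate 1 (0.24, adjusted p = 0.0729, edgeR). The fall of MANBA in MV-4-11 was lost without BRM014 72 h replicate 2 (-0.20, adjusted p = 0.141) or DMSO replicate 1 (-0.22, adjusted p = 0.0997). The fall of ATP6V1H in THP-1 was lost without DMSO replicate 2 (-0.25, adjusted p at 0.05 after rounding). ACP5 and LGMN rest on few counts. Over both libraries at 72 h, ACP5 had 11 counts in MOLM-13, against 33 in DMSO, and 49 in THP-1, against 19 in DMSO. Its fall in MOLM-13 was lost without BRM014 72 h replicate 1 (-1.62, adjusted p = 0.0975) or DMSO replicate 2 (-1.36, adjusted p = 0.168, edgeR), and its rise in THP-1 was lost in 6 of 22 fits with 1 library left out (adjusted p 0.0501 to 0.335). The rise of LGMN in THP-1 was lost in 2 of 22 (0.0857 and 0.107). ARSB, CTSC and ATP6V1B2 stayed called in opposite directions in MV-4-11 and THP-1 with any 1 library left out.

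PMA raised nearly the whole set in THP-1. Against DMSO, 43 of 46 members were higher and 0 lower, while 18.9% and 17.1% of all genes tested were called in those directions, and the median log2 fold change was 0.98 against -0.02 for all genes. All 11 proteases were higher, with a median of 2.26, as were 12 of 13 glycosidases and sulfatases, 6 of 7 lipid genes, all 6 membrane proteins and all 5 pump genes. The 3 members not called were NEU1 (0.23), NPC1 (0.12) and ACP5 (1.30). GPNMB rose most, with 738 and 620 CPM with PMA, against 31.5 and 30.5 CPM in DMSO (log2 4.54 ± 0.12, adjusted p = 2.8e-16, edgeR). FUCA1 had 114 and 89.5 CPM, against 12.8 and 10.7 CPM in DMSO, and DNASE2 had 233 and 299.6 CPM, against 36.9 and 36.5 CPM in DMSO.

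LGMN also reached clear levels with PMA, at 6.34 and 4.11 CPM, against 0.188 and 0.495 CPM in DMSO, a rise fitted at log2 3.94 ± 0.53. It rests on 13 counts over both DMSO libraries, and without DMSO replicate 2 it was 4.84. CTSS and CTSH, cysteine cathepsins of antigen-presenting cells and of lung surfactant processing, had 853 and 715 CPM and 308 and 315 CPM with PMA, against 165 and 168 CPM and 74 and 64.7 CPM in DMSO. CTSZ, a carboxypeptidase, had 1001 and 1358 CPM, against 297 and 298 CPM in DMSO, and the 2 PMA libraries differed more here than the DMSO libraries did. With a library left out, the count of members higher with PMA ran between 40 and 43. The macrophage marker list of 12 genes summed to 1232 to 1275 CPM with PMA, against 345 to 360 CPM in DMSO, with 0 markers at 0 counts in both PMA libraries and C1QB and FABP4 at 0 in DMSO. The part of these markers in the members' rise was not tested.

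DB2313 raised fewer members. In THP-1, 32 of 46 were higher and 7 lower than in DMSO, while 35.9% and 29.5% of all genes tested were called in those directions, and the median log2 fold change was 0.67 against 0.14 for all genes. Proteases split with 7 higher and 3 lower, glycosidases and sulfatases with 9 higher and 1 lower, lipid genes with 4 higher and 2 lower, and membrane proteins with 4 higher and 1 lower, while all 5 pump genes were higher. FUCA1 had 185 and 193 CPM with DB2313, against 12.8 and 10.7 CPM in DMSO (log2 3.94 ± 0.10, adjusted p = 1.1e-16, edgeR). ACP5 had 8.09 and 10.01 CPM, against 0.125 and 0.841 CPM in DMSO, and LGMN had 2.75 and 2.69 CPM, against 0.188 and 0.495 CPM in DMSO. CTSD had 2042 and 1868 CPM, against 305 and 293.5 CPM in DMSO, and with PMA it had 1976 and 2277 CPM. CTSC had 1108 and 1104 CPM with DB2313, its highest level in any group, against 219.8 and 217 CPM in DMSO. NPC1, not called with PMA, had 73.3 and 78.1 CPM, against 42.8 and 40.5 CPM in DMSO.

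PPT1 fell most with DB2313. It encodes a thioesterase that removes palmitate from proteins, and had 2222 and 2148 CPM, against 6133 and 6257 CPM in DMSO (log2 -1.58 ± 0.066, adjusted p = 8.77e-14, edgeR). CTSS had 132 and 134 CPM with DB2313, against 165 and 168 CPM in DMSO (log2 -0.40 ± 0.093). CTSH had 60.6 and 51.5 CPM, against 74 and 64.7 CPM in DMSO (log2 -0.38 ± 0.093), and LIPA had 42.2 and 41.6 CPM, against 49.5 and 51.4 CPM in DMSO (log2 -0.34 ± 0.10). The groups did not overlap for these 4 genes. The fall of CTSH was lost without DB2313 replicate 2 (-0.24, adjusted p = 0.0538, edgeR), as were those of GLA (-0.20, adjusted p = 0.129) and CTSL (-0.10, adjusted p = 0.354), and LAMP2 was lost without DB2313 replicate 1 (-0.20, adjusted p = 0.0617). A list of 7 osteoclast markers summed to 376 to 380 CPM with DB2313, against 24.6 to 26.0 CPM in DMSO. MMP9 gave 247 and 234 CPM of it with DB2313, against 0.251 and 0.792 CPM in DMSO, and CALCR was at 0 in both groups. NFATC1 had 112.5 and 119.9 CPM, against 23.9 and 24.25 CPM in DMSO, and ATP6V0D2 and ITGB3 were also higher. DCSTAMP and OCSTAMP stayed low, with OCSTAMP at 0.264 and 0.425 CPM, against 0 and 0.495 CPM in DMSO. ACP5 and CTSK, which osteoclasts also make, rose in the same libraries, and the part of these markers was not tested.

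The comparisons of BRM014, PMA and DB2313 with DMSO in THP-1 share the same 2 DMSO libraries, so the treatments were also set against each other directly. At 72 h of BRM014, 10 members were higher and 26 lower than with PMA (all genes: 30.4% and 29.8%), with a median log2 difference of -0.46 against 0.03 for all genes. The 10 higher were CTSA, CTSL, GLB1, ARSA, SMPD1, ACP2, LAMP1, LAMP2, MCOLN1 and GRN. GLB1 had 340 and 351 CPM with BRM014, against 155 and 139.9 CPM with PMA (log2 1.06 ± 0.063, adjusted p = 1.45e-11, edgeR). LAMP2 had 1035 and 954 CPM with BRM014, against 535 and 478 CPM with PMA, and CTSL had 582 and 625 CPM with BRM014, against 332 and 356 CPM with PMA. The largest deficits were in GPNMB (-6.81 ± 0.14), CTSS (-3.42 ± 0.10), GLA (-2.81 ± 0.11), ASAH1 (-2.53 ± 0.082) and CTSZ (-2.14 ± 0.11). PSAP did not differ by the test, at 0.05 ± 0.059, adjusted p = 0.529. DNASE2 was lower, at -0.28, a call that was lost in 3 of 22 fits with 1 library left out (adjusted p 0.053 to 0.546), the smallest difference being -0.06 without PMA replicate 2. Among the 10 higher, CTSA was lost without BRM014 72 h replicate 2 or PMA replicate 1 (adjusted p = 0.0536 and 0.0843), SMPD1 without the same libraries (0.161 and 0.202) and ACP2 without BRM014 72 h replicate 1 (0.0847, edgeR).

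Against DB2313, 16 members were higher and 21 lower at 72 h of BRM014 (all genes: 30.4% and 30.9%), with a median log2 difference of -0.17 against 0.01 for all genes. CTSL had 582 and 625 CPM with BRM014, against 73.7 and 64 CPM with DB2313 (log2 3.12 ± 0.083, adjusted p = 9.38e-17, edgeR). DNASE2 had 241 and 253 CPM with BRM014, against 40.8 and 41.7 CPM with DB2313, and PSAP, GRN, LIPA and PPT1 were each higher by between 1.52 and 1.55. The largest deficits were in GPNMB (-4.78 ± 0.13), ACP5 (-2.66 ± 0.48), CTSC (-2.64 ± 0.07) and FUCA1 (-2.23 ± 0.089). Of the 5 pump genes, 4 were lower with BRM014 than with DB2313 (all genes: 30.9%) and 4 were lower than with PMA (all genes: 29.8%). ATP6V1A was not called in either contrast. ATP6V1B2 had 175 and 171 CPM with BRM014, against 534 and 559 CPM with DB2313 and 344.5 and 307.5 CPM with PMA. The macrophage list summed to 963 to 1043 CPM at 72 h of BRM014, 1232 to 1275 CPM with PMA and 572 to 643 CPM with DB2313, and MSR1, MRC1, C1QB, C1QC and FABP4 were at 0 with BRM014. CD68 gave most of the sum with BRM014 (670 and 708 CPM, against 327 and 343 CPM in DMSO). APOE had 235 and 271 CPM with BRM014, against 8.96 and 8.31 CPM in DMSO, and CD14 had 56.0 and 62.7 CPM, against 1.63 and 1.68 CPM in DMSO. A list of 10 epithelial and fibroblast markers summed to 152 to 156 CPM at 72 h of BRM014 and 81.1 to 85.6 CPM with DB2313, against 3.82 to 4.50 CPM in DMSO, and COL1A1 gave 114 and 122 CPM of it with BRM014. COL1A2 and COL3A1 were at 0 in all 3 groups, and the part of these markers in the members' changes was not tested.

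**Figure D4:**
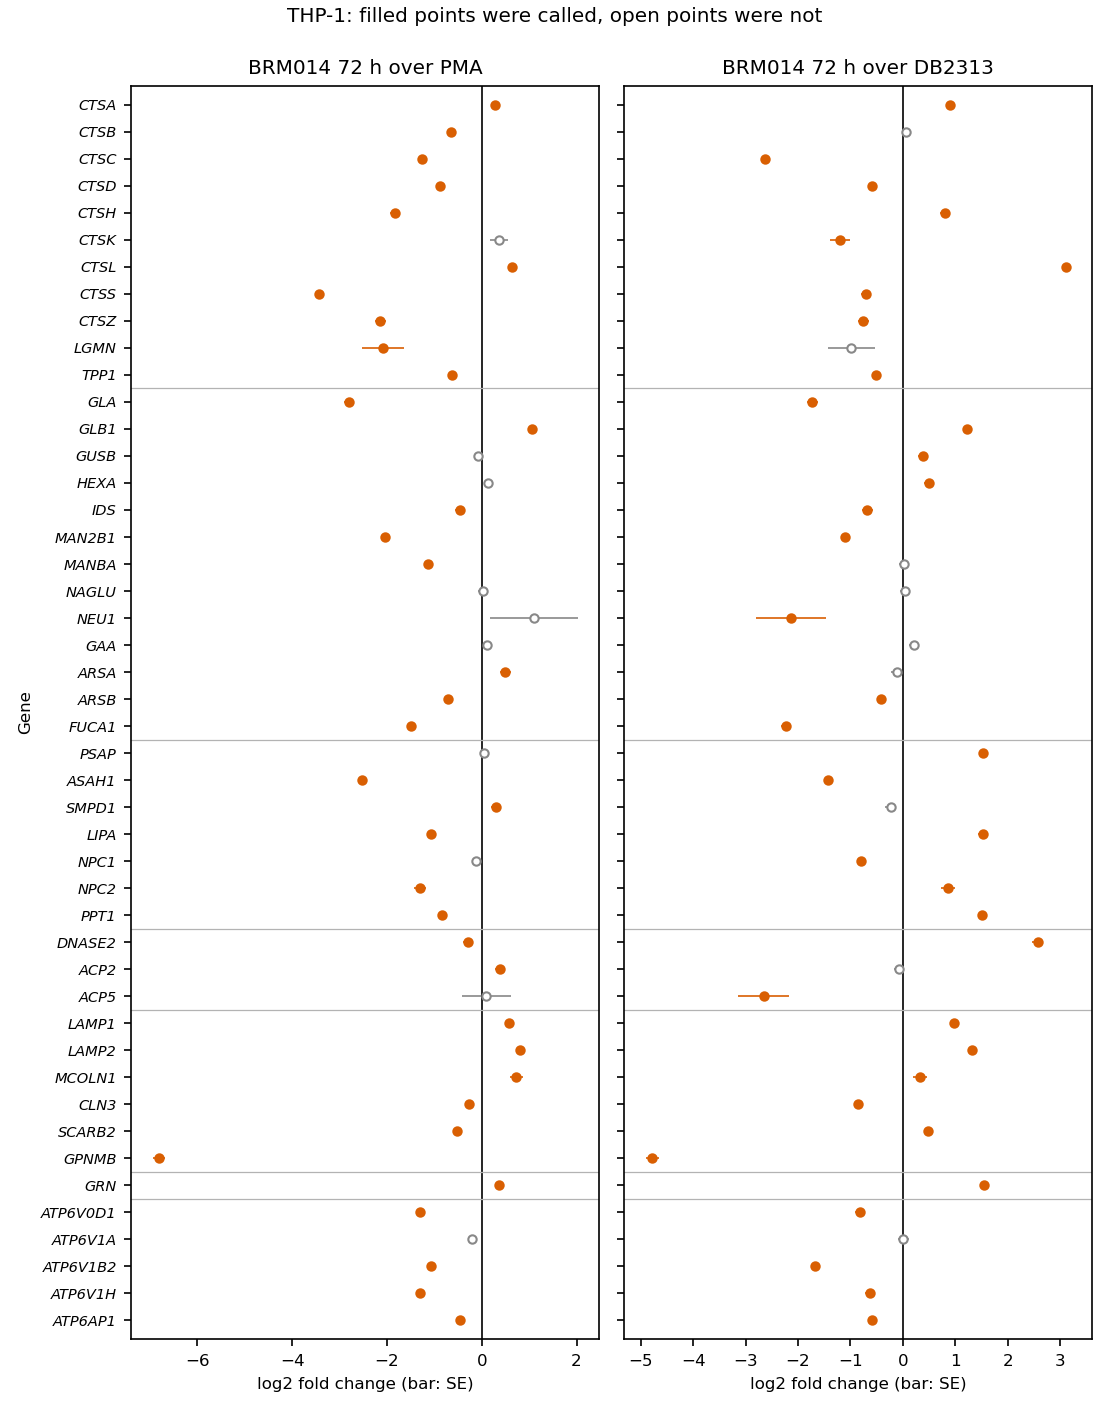
Log2 difference of each member in THP-1 at 72 h of BRM014 over PMA and over DB2313, by role. GPNMB lies lowest in both contrasts, at -6.81 over PMA and -4.78 over DB2313, and CTSL lies highest over DB2313, at 3.12.

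The level of PPT1 set THP-1 apart in every condition. It had 6805 and 6728 CPM at 24 h and 6396 and 6201 CPM at 72 h of BRM014 and 10220 and 9765 CPM with PMA, against 6133 and 6257 CPM in THP-1 DMSO, while DMSO libraries had 163 and 135.5 CPM in MOLM-13 and 272 and 279 CPM in MV-4-11. PPT1 lies on chromosome 1 at 40071461 to 40097727, minus strand, and its exons overlap those of CAP1 on the other strand. The neighbourhood was looked at after these values were seen. Within 1 Mb on each side, 25 of 26 coding genes (PPT1 among them) with at least 10 CPM in THP-1 DMSO were higher there than in either other line, by a median ratio of 12.1, and by 22.5 for PPT1. Copy number was not measured. With DB2313 the ratio to DMSO was 0.353 for PPT1, the lowest of the 26, against a median of 0.927.

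**Figure D5:**
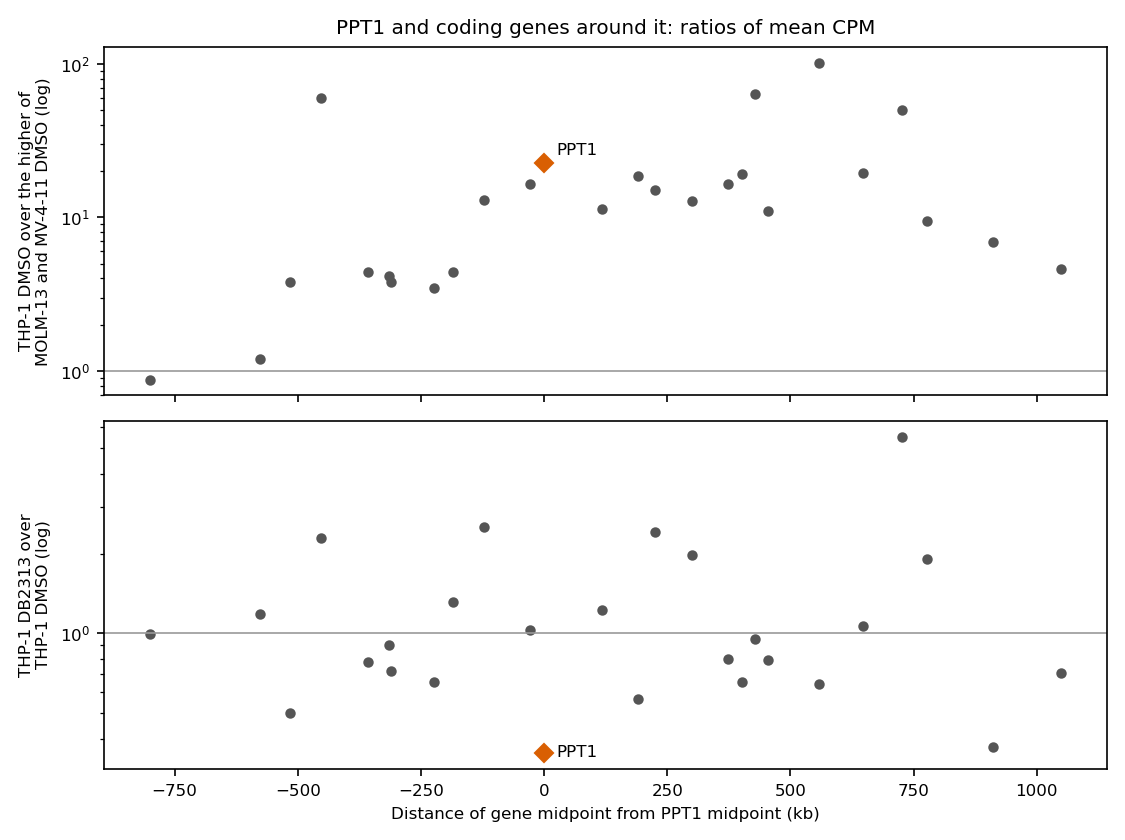
Ratio of CPM (log axis) for coding genes within 1 Mb of PPT1 against distance from PPT1 in kb, for THP-1 DMSO over the higher of the other lines and for DB2313 over THP-1 DMSO. Nearly all genes of the window lie above 1 in the first ratio (25 of 26), and PPT1 is the lowest point in the second, at 0.353.

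NEU1 counts are uncertain. NEU1 lies in the major histocompatibility complex region of chromosome 6, and 68 of 95 other coding genes within 1 Mb of it had a median under 1 CPM over the libraries. Among these neighbours the 2 replicates of a group differed by more than 3 times in 31 of 199 gene and group pairs with at least 5 CPM (15.6%), against 0.25% of 117049 such pairs for other genes. This was looked at after the values of NEU1 were seen, and the cause was not tested. NEU1 itself had 3.805 and 3.885 CPM in MOLM-13 at 72 h, against 0.83 and 2.64 CPM in DMSO, and 2.85 and 2.86 CPM in MV-4-11, against 0.3335 and 0.0958 CPM in DMSO. With DB2313 it had 1.11 and 2.22 CPM, against 0.0626 and 0.198 CPM in THP-1 DMSO. With NEU1, LGMN and ACP5 left out, the other 43 members gave 38 higher and 4 lower at 72 h of BRM014, 42 higher and 0 lower with PMA, and 29 higher and 7 lower with DB2313. Exons of 11 members (among them CTSA, GLB1, HEXA, PPT1, ACP2, MCOLN1 and CLN3) overlap another gene, and the strand setting of the counting is not given in the sources used here. Reads of such pairs may be mixed, or may be among the 3.04% to 3.82% of reads set aside as ambiguous. For GLB1 and MCOLN1 the other gene is on the same strand, so that setting does not bear on them.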

How the data were processed

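Polyadenylated RNA of 22 cell line libraries was sequenced, and the authors deposited 1 table of raw read counts per gene symbol for each library. HISAT2 2.1.0, HTSeq, DESeq2 and the build hg38 appear in the submitters' processing notes, without roles. The strand setting of the counting and the gene annotation are not given in the sources used here. The 5 summary lines of each table were left out, and CPM (counts per 1000000 reads in genes) were computed from the deposited counts. All 22 libraries entered 1 edgeR 4.0.16 quasi-likelihood fit (R 4.3.3, limma 3.58.1) with TMM scaling and 1 coefficient per group. The filterByExpr function with a minimum count of 10 kept 16794 of 28063 genes. P-values were adjusted by Benjamini-Hochberg over all genes tested, calls were made under 0.05, and errors of log2 fold changes are standard errors. Values below a few CPM carry large counting error, and intervals and floors cover counting error only.

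The members and the gene lists were chosen with earlier results of these data known. All members are accounted for by role. Values in every library are given for the largest changes in each comparison, for the smallest p-values of a difference between lines and for members called in opposite directions in 2 lines. Alternatives were RLE scaling, library size alone, no low-count filter, DESeq2 1.42.0, a replicate block, a fit without the PMA and DB2313 libraries, and leaving out each library in turn. The scripts were tested on simulated data. Gene positions are from GENCODE release 29 (GRCh38), and promoter windows from RefSeq (GRCh38.p14).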

Additional observations from a re-analysis of the deposited data

Results flagged for a closer look

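The response to BRM014 differed between the lines for 36 of 46 members at 24 h and 44 at 72 h (edgeR test of the difference between lines). Among all genes tested, 43.5% and 52.9% were called by the same test. At 72 h the members called in opposite directions in 2 lines were flagged by that test, with adjusted p-values of 1.96e-13 for ARSB, 1.19e-11 for ATP6V1B2, 2.92e-10 for CTSC, 1.36e-08 for MANBA, 2.09e-05 for ATP6V1H and 2.94e-05 for GUSB. LGMN (0.000996) and ACP5 (0.0082) met the same rule on few counts. DNASE2, FUCA1 and GRN had adjusted p-values of 1.75e-12, 5.76e-12 and 1.12e-11 for the difference and rose in all 3 lines at 72 h.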

How the results depend on the processing

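No member change called in the comparisons (501 of 598 values) turned its direction under any alternative. Calls lost and gained were 1 and 4 with RLE scaling, 13 and 16 with library size alone, 10 and 6 with no low-count filter, 5 and 4 with DESeq2, and 2 and 12 (of 346 called) without the PMA and DB2313 libraries. With 1 library left out, 3 to 11 calls were lost, and without a PMA library 15 or 16 were gained. The count of members lower with DB2313 was 7, and it ran between 4 and 8 with 1 library left out. Same-numbered libraries of 2 groups showed correlations of their deviations between -0.12 and 0.09 over 55 group pairs. No shared effect of the replicate number was thus seen, but this cannot tell whether the libraries were made as pairs. The replicate block lost 1 call and gained 6 (NEU1 in MOLM-13 at 24 h was lost, at -1.51, adjusted p = 0.0609, edgeR). Library size alone moved the median of all genes by 0.11 on the log2 scale at 72 h averaged over lines, 0.13 in MOLM-13 at 24 h, 0.19 in MOLM-13 at 72 h and 0.17 for BRM014 against PMA. It moved the share of higher calls among all genes to 59.3% in MOLM-13 at 24 h, against 49.1% with TMM, to 41% with PMA, against 52.5%, and to 60.9% for BRM014 at 72 h over PMA, against 50.5%. Low members (LGMN, ACP5, NEU1, and GPNMB in MOLM-13 and MV-4-11) rest on few counts, and the cause of the low NEU1 counts was not tested.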

Other observations

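Lysosomal genes outside the 46 were counted from lists of known members of the same compartments, all chosen with earlier results of these data known. At 72 h of BRM014 averaged over lines, 22 of 29 other hydrolases and activators were higher and 3 lower (all genes: 34.9% and 30.4%), with a median log2 fold change of 0.73 against 0.07 for all genes. This list of 29 also holds TPCN2, a channel of the membrane rather than a hydrolase. CTSF, a cathepsin with a long propeptide, rose by 3.74 ± 0.20. CTSF had 51.25 and 48.8 CPM in MOLM-13 and 46.9 and 43.5 CPM in THP-1 at 72 h, against 1.96 and 2.14 CPM and 2.005 and 1.78 CPM in their DMSO libraries. SGSH, the heparan sulfamidase, had at most 0.639 CPM in any MOLM-13 or MV-4-11 library, and in THP-1 had 35.2 and 34.1 CPM at 72 h, against 1 and 1.09 CPM in DMSO.

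Of 27 other lysosomal membrane proteins, 19 were higher and 2 lower. OSTM1, partner of the chloride transporter of lysosomes, and ABCA2, a lipid transporter, rose by 2.23 ± 0.05 and 2.03 ± 0.048, and LAPTM4B and MCOLN2 fell, at -1.35 ± 0.046 and -0.78 ± 0.051. Of 18 other pump subunits, 11 were higher and 4 lower, with ATP6V0A1 at 2.23 ± 0.043 and ATP6V0B at -0.84 ± 0.056. Of 15 genes that deliver enzymes to lysosomes, 8 were higher and 3 lower (all genes again 34.9% and 30.4%), and the mannose 6-phosphate receptors split, with IGF2R at 1.47 ± 0.055 and M6PR at -0.56 ± 0.043.

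With PMA the same lists gave 14 of 29 hydrolases higher and 0 lower, 17 of 27 membrane proteins higher and 3 lower, 12 of 18 pump subunits higher and 0 lower, and 10 of 15 delivery genes higher and 0 lower (all genes: 18.9% and 17.1%). With DB2313 the counts were 17 higher and 6 lower, 11 higher and 7 lower, 6 higher and 4 lower, and 7 higher and 5 lower in the same order (all genes: 35.9% and 29.5%), so the membrane, pump and delivery lists were near the share of all genes.

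Of 5 transcription factors of the lysosome and autophagy program, 3 were higher and 1 lower at 72 h of BRM014 averaged over lines (all genes: 34.9% and 30.4%). With PMA, 4 were higher and 0 lower (all genes: 18.9% and 17.1%), and with DB2313, 3 were higher and 1 lower (all genes: 35.9% and 29.5%). The 3 higher with BRM014 were TFE3, TFEB and ZKSCAN3. These counts take no account of whether a factor activates or represses the program, so they do not count activators alone. ZKSCAN3 had 26.8 and 25.9 CPM in MOLM-13 at 72 h, against 17.8 and 16 CPM in DMSO. In THP-1 it had 7.85 and 8.15 CPM, against 6.2 and 6.63 CPM in DMSO, and in MV-4-11 16.1 and 16.8 CPM, against 16.4 and 17.6 CPM. TFE3 was higher at 72 h of BRM014 in all 3 lines, with 197 and 195 CPM in MOLM-13, 99.4 and 106 CPM in MV-4-11 and 122 and 124 CPM in THP-1, against 29.3 and 32.4 CPM, 31.2 and 31.1 CPM and 38.9 and 39.2 CPM in DMSO (mean log2 1.90 ± 0.044, adjusted p = 1.09e-18, edgeR). TFEB rose less, by 0.78 ± 0.082, and TFEC, a relative confined largely to myeloid cells, was lower by the test in all 3 lines, at -2.80 ± 0.11 in the mean. TFEC had 34.9 and 32 CPM in THP-1 at 72 h, 207 and 152 CPM with PMA and 14.5 and 15.8 CPM with DB2313, against 137 and 136 CPM in DMSO. MITF had 0.26 ± 0.12, adjusted p = 0.063 averaged over lines at 72 h of BRM014, and with PMA it rose by 3.41 ± 0.20 (edgeR). Of 70 lysosomal genes outside the set with a promoter window, 30% held CACGTG, against 8.77% of all genes.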
